A study of Mus musculus with 12 samples.

Results

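The genes described here are 9 mouse transcription factors with a basic leucine zipper (bZIP): Nfil3, the BATF factors Batf and Batf3, and the AP-1 subunits Fos, Fosb, Fosl2, Jun, Junb and Jund. They were chosen by name, with earlier results of these data known. All 9 are among the 34650 gene names on the array, where 10 probes report them. RNA was measured on 12 1-colour microarrays, 3 for each of 4 groups of splenic B cells from 9-week-old female BALB/c mice, which were wild type or STAT6 ko (here called knockout). B cells had been purified by negative selection, and all 4 groups, the controls included, were stimulated for 4 days with anti-CD40 antibody (10 µg/ml) and LPS (2 µg/ml), with fresh medium on day 3. IL-4 (25 ng/ml) was present in the wild-type IL-4 and knockout IL-4 groups and absent from the wild-type control and knockout control groups. The labels do not name the allele behind the STAT6 deficiency, and they do not say whether the triplicates of a group are different mice. The p-values therefore measure the spread between samples, which may be technical.

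bZIP proteins bind DNA as dimers held together by their zippers. FOS proteins need a JUN partner, and the dimers bind AP-1 sites and the related cAMP response element (CRE). BATF and BATF3 also pair with JUN proteins and, with the interferon regulatory factors IRF4 or IRF8, bind composite sites in lymphocytes and dendritic cells. In B cells BATF is needed for class switching, BATF3 is best known from cross-presenting dendritic cells, and NFIL3, which binds as a homodimer to sites shared with the PAR bZIP factors of the circadian clock, is known as an IL-4-induced regulator of IgE switching. STAT6 is the factor that the IL-4 receptor activates, and it binds palindromes with a spacer of 4 bases.

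The genes differed in how they responded to IL-4, and RefSeq (GRCm38.p6) gives a start site for all 9 of them. The 250 bases before that start are shown for the 3 genes that rose most in wild-type cells (Nfil3, Fosl2 and Batf3), for Fos, which fell most in knockout cells, and for Batf, which rose in both genotypes (log2 changes 0.38 and 0.39). Each is written in the gene's own direction, 5′ to 3′, and ends at the base before the start. Capitals mark matches to the letters TTCNNNGAA (a STAT palindrome with 3 spacer bases) or TGACGT (the core of a CRE).
Nfil3, chr13:52981040-52981289, minus strand: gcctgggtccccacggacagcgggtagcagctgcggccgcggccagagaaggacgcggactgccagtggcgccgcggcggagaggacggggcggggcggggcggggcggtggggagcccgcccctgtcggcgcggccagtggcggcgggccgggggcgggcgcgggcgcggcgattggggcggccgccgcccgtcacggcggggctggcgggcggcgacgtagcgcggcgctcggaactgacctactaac
Fosl2, chr5:32136222-32136471, plus strand: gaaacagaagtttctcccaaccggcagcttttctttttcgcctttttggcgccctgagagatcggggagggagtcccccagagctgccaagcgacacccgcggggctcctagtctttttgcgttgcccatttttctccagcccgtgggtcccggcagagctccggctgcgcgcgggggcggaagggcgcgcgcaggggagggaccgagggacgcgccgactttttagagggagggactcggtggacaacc
Batf3, chr1:191098164-191098413, plus strand: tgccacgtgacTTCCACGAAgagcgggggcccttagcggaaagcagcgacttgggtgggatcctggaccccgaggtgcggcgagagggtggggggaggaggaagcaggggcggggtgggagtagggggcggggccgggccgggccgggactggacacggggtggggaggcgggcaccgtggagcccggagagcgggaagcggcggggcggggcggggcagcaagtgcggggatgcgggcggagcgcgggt
Fos, chr12:85473640-85473889, plus strand: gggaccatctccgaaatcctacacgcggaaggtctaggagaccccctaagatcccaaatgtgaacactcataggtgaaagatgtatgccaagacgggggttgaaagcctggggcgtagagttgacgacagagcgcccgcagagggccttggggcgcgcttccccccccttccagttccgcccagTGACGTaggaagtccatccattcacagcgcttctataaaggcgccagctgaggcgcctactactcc
Batf, chr12:85686470-85686719, plus strand: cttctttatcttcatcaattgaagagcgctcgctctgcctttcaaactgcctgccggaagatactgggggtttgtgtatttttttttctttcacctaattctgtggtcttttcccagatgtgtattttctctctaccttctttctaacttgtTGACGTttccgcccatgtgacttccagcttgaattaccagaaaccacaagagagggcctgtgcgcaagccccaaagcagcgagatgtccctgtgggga
Batf3 held TTCCACGAA, 239 to 231 bases before the start, a match to TTCNNNGAA that 7.02% of 32851 RefSeq promoter windows of 250 bases also hold. TGACGT lay 66 to 61 bases before the start of Fos and 98 to 93 bases before that of Batf. It was in 6.47% of all windows, and was added to the search after these sequences had been read. The AP-1-like site TGACATCA, which Jun holds 45 to 38 bases before its start, was in 2.93% of windows, and TATAAA, in 12.4% of windows, was found in Fos alone among the 9. The NF-kB letters GGGNNNNNCC matched Batf3, Fos, Fosb, Fosl2 and Jun, 5 of the 9, against 45.8% of all windows. The 4-spacer STAT6 palindrome TTCNNNNGAA (5.85% of windows), the AP-1 letters TGANTCA (6.75%), the full CRE TGACGTCA (1.55%), which contains TGACGT, and the NFIL3 and PAR bZIP letters TTANNTAA (5.43%) matched none of the 9 windows. Both strands were searched, and a match describes letters only, not binding.

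Within groups, arrays correlated pairwise at 0.994 to 0.998 (Pearson's r over 16497 genes, which are not independent replicates), and between 40.7% and 44.0% of the 59305 spots were well above background. Levels are log2 processed signals minus the 75th percentile of the array, so 0 is the 75th percentile spot. All 6 wild-type arrays were on slide 1, with knockout controls 1 and 2. The third knockout control and the 3 arrays of the knockout IL-4 group were on slide 2. Results on the knockout are therefore also given with slide as a block where that changes them. Stat6 had mean levels of 3.18 and 3.36 in the wild-type control and IL-4 groups and 1.24 and 1.42 in the knockout groups, with no overlap between genotypes (knockout minus wild type without IL-4 -1.94 on the log2 scale, adjusted p = 1.03e-06, limma). Whether that probe lies in the deleted stretch is not given in the sources used here. The B cell markers Cd79a, Cd79b, Blk and Cd72 were well above background on every array.

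Of the 9 bZIP genes, 8 could be tested and Fosb was too dim. In wild-type cells 6 of the 8 rose with IL-4 and none fell: Nfil3, Fosl2 and Batf3 by 5.72-fold or more, and Jun, Batf and Jund by 1.31-fold or less. In knockout cells 4 rose (Nfil3, Batf3, Batf and Jun) and 2 fell (Fos and Fosl2). The call is an adjusted p under 0.05 (limma, Benjamini-Hochberg over all genes tested). IL-4 moved a large part of the transcriptome, since 57.1% of all genes passed that threshold in wild-type cells and 26.4% rose. In knockout cells 42.2% passed, with 27.5% higher and 14.7% lower. With a change of at least 2-fold as well, 3 of the 8 were called in wild-type cells, against 12.7% of all genes (5.72% higher), and Fos and Fosl2 in knockout cells, against 3.52% (2.73% lower). The median log2 change of the 8 genes was 0.38 in wild-type cells, beside -0.04 for all genes, and 0.13 in knockout cells, beside 0.05. IL-4 and control arrays did not overlap for 6 of the 8 genes in wild-type cells (69.2% of all genes) and for 5 in knockout cells (46.5%). Because the genes were listed with earlier results of these data known, such counts beside those of all genes are no independent test.

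**Figure D1:**
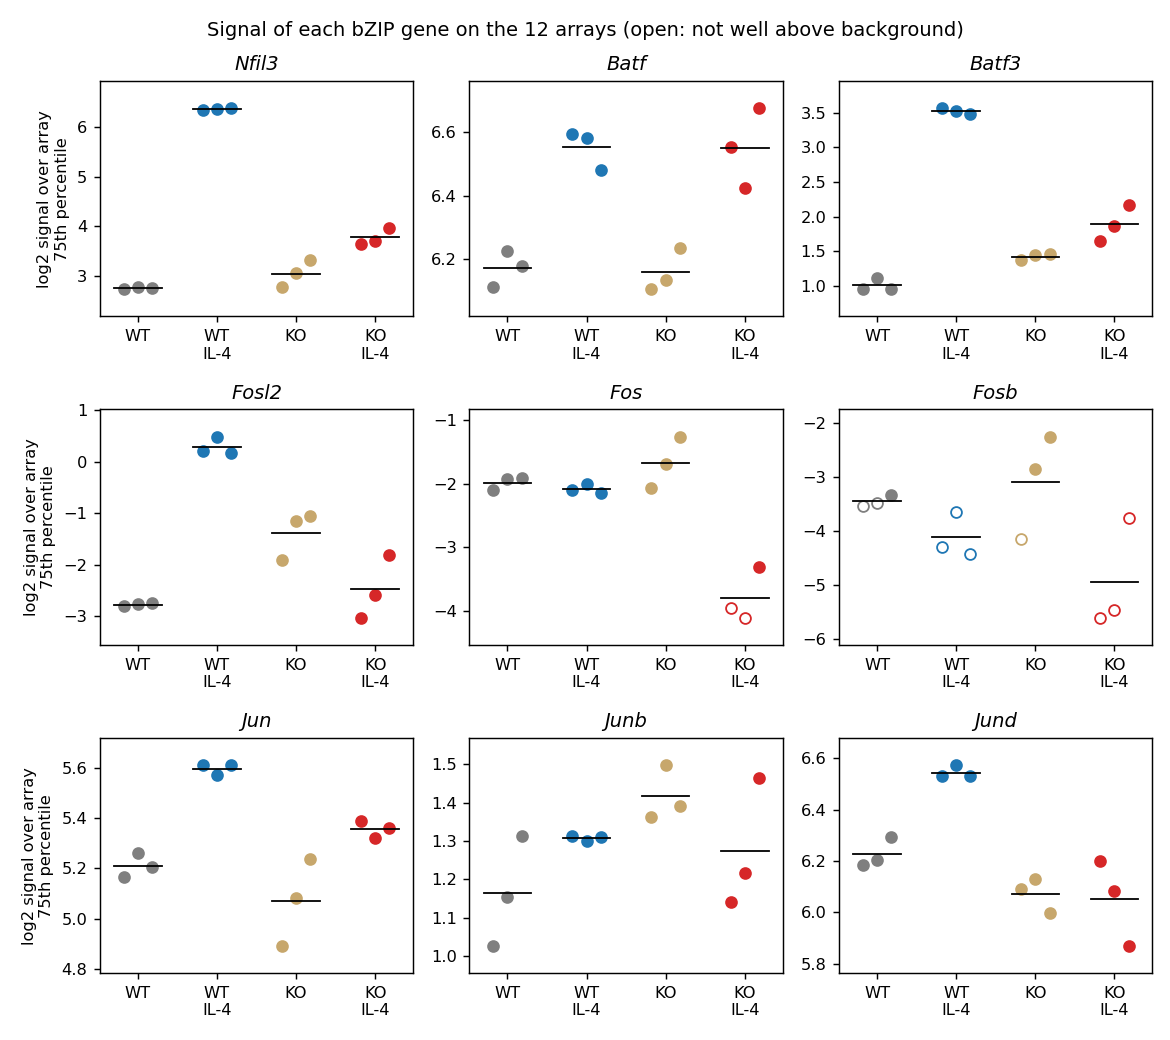
Level of each of the 9 bZIP genes (vertical axis, log2 signal over the 75th percentile of the array) on the 12 arrays, by group (WT, wild type; KO, STAT6 knockout; IL-4 where marked). Points are arrays, filled where the probe was well above background, and the bar is the group mean. Nfil3 sits between 6.33 and 6.38 on the wild-type IL-4 arrays and no higher than 3.97 on any other.

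Nfil3 was the member that rose most. Its probe (A_55_P2035320, for transcript NM_017373, mm9 chr13:53062578-53062637, minus strand) had levels of 2.73, 2.78 and 2.76 on the wild-type control arrays and 6.33, 6.36 and 6.38 on the wild-type IL-4 arrays. The knockout control arrays gave 2.78, 3.06 and 3.32 and the knockout IL-4 arrays 3.65, 3.71 and 3.97. The groups with IL-4 stood apart from the control group of their own genotype, and the wild-type IL-4 arrays stood far above all others. The order of the group means was wild-type IL-4 (6.36 ± 0.02, SD, n = 3), knockout IL-4 (3.78 ± 0.17), knockout control (3.05 ± 0.27) and wild-type control (2.76 ± 0.02), and the last pair overlapped.

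IL-4 raised Nfil3 12.1-fold in wild-type cells (log2 change 3.60 ± 0.12 SE, adjusted p = 3.48e-09, limma). In knockout cells it rose 1.65-fold (0.73 ± 0.12, adjusted p = 9.80e-04), or by 0.46 on the log2 scale (adjusted p = 0.0258) with slide as a block, which sets the knockout IL-4 arrays against knockout control 3 alone. The response was 2.87 ± 0.17 larger in wild-type cells (adjusted p = 5.90e-07), and 3.14 larger with slide as a block. With IL-4 present, the knockout level was 5.98-fold lower than the wild-type level (adjusted p = 4.69e-08). Without IL-4 the genotypes differed by 0.29 ± 0.12 (adjusted p = 0.127), below the threshold, and by 0.43 (adjusted p = 0.0201) without knockout control 1.

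Batf3 followed the same order at smaller size. Its probe (A_51_P419286, NM_030060, mm9 chr1:192932528-192932587, plus strand) gave levels of 0.95, 1.11 and 0.96 on the wild-type control arrays, 3.56, 3.53 and 3.49 on the wild-type IL-4 arrays, 1.37, 1.45 and 1.46 on the knockout control arrays and 1.65, 1.86 and 2.17 on the knockout IL-4 arrays. None of the 4 groups overlapped. IL-4 raised Batf3 5.72-fold in wild-type cells (2.52 ± 0.11 on the log2 scale, adjusted p = 1.79e-08, limma) and 1.38-fold in knockout cells (0.47 ± 0.11, adjusted p = 0.00585). The knockout rise was of like size with slide as a block but missed the threshold (0.44, adjusted p = 0.0606). The response was 2.05 ± 0.15 larger in wild-type cells (adjusted p = 2.76e-06).

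Since Batf3 is a factor of dendritic cells, their markers stand beside it. Xcr1 and Clec9a, which define the cross-presenting dendritic cell, were well above background on none of the 12 arrays. The summed signal of the 7 dendritic cell markers, in multiples of the array's 75th percentile, was 111 to 135 in the wild-type control, 122 to 131 in the wild-type IL-4, 136 to 146 in the knockout control and 128 to 147 in the knockout IL-4 group. Siglech, the brightest of the 7, had mean levels of 6.55, 6.85, 6.72 and 6.60 in these groups, so the sum mostly follows that gene. Siglech rose by 0.31 with IL-4 in wild-type cells (adjusted p = 0.0132, limma). Single markers moved with IL-4 in wild-type cells in both directions: Zbtb46 rose by 1.35 on the log2 scale and Flt3 fell by 1.65, while Itgax, below background on the control arrays, was at least 1.80-fold higher. Their part in the Batf3 values was not tested. In bulk RNA such as this, more cells of a type and more RNA per cell cannot be told apart.

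Batf rose in both genotypes. Its probe (A_51_P114616, NM_016767, mm9 chr12:87049872-87049929, plus strand) is printed as 10 spots on each array. Their means were 6.11, 6.23 and 6.18 on the wild-type control arrays and 6.60, 6.58 and 6.48 on the wild-type IL-4 arrays. The knockout control arrays gave 6.11, 6.13 and 6.24 and the knockout IL-4 arrays 6.55, 6.42 and 6.68. In both genotypes the IL-4 arrays lay above the controls, and the genotypes overlapped under either condition. The SD between the spots of an array was 0.021 to 0.044 (8 to 10 spots without outlier flags), so the spread between arrays of a group, 0.06 to 0.13, was wider than the spread between spots.

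The rise of Batf was 1.30-fold in wild-type cells (0.38 ± 0.07 on the log2 scale, adjusted p = 8.80e-04, limma) and 1.31-fold in knockout cells (0.39 ± 0.07, adjusted p = 0.00139). The difference of the responses was -0.01, with a 95% interval from -0.23 to 0.21 (adjusted p = 0.933), so a difference inside that interval could not be seen with these arrays. Genotypes differed by -0.01 without IL-4 and by less than 0.01 with it, and neither passed. IRF4 and IRF8 are the partners of BATF on composite sites. Irf4 rose with IL-4 by 0.29 in wild-type and 0.23 in knockout cells (adjusted p = 0.00184 and 0.0110), and Irf8 fell by 0.51 in wild-type cells (adjusted p = 2.02e-06) with a change of -0.04 in knockout cells (adjusted p = 0.493).

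**Figure D2:**
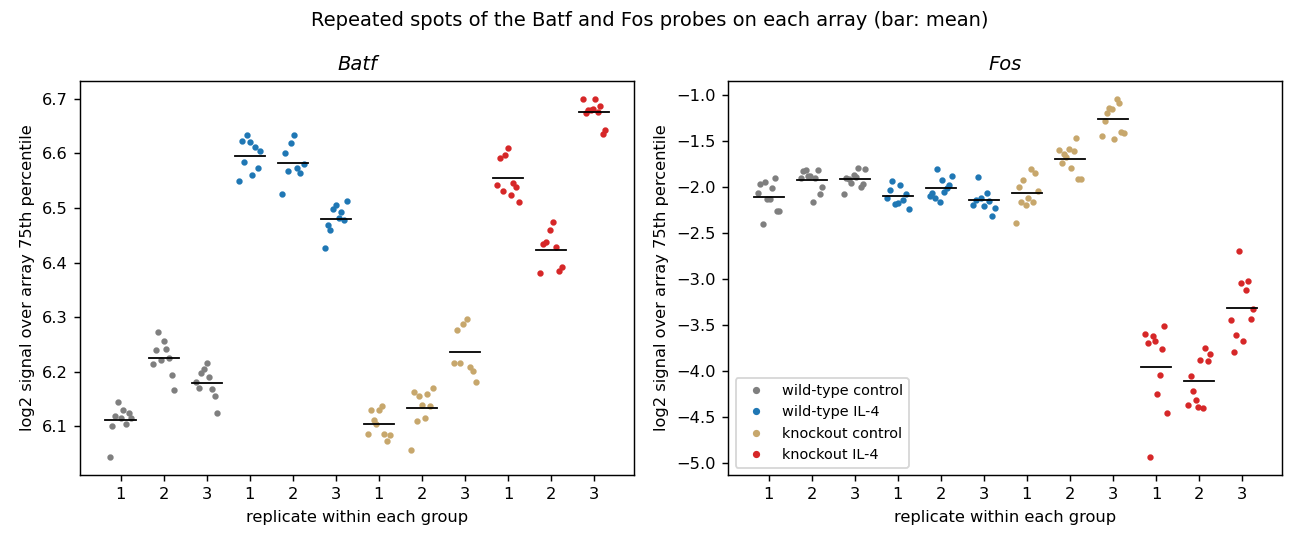
Spots of the Batf and Fos probes on each array (points, log2 signal over the 75th percentile of the array), with the array mean as a bar and arrays ordered by group and replicate number. Batf spots scatter by an SD of at most 0.044 on any array, and Fos spots by up to 0.463, where the dim knockout IL-4 arrays are the most scattered.

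The FOS proteins cannot pair with one another, and Fosl2, which encodes FRA2, was the member of that family that IL-4 raised. Its brighter probe (A_55_P1995195, NM_008037, mm9 chr5:32460076-32460135, plus strand) had levels of -2.81, -2.77 and -2.74 on the wild-type control arrays, 0.21, 0.49 and 0.18 on the wild-type IL-4 arrays, -1.91, -1.16 and -1.06 on the knockout control arrays and -3.03, -2.59 and -1.81 on the knockout IL-4 arrays. The wild-type IL-4 arrays stood alone, the knockout controls lay above the wild-type controls, and the knockout IL-4 arrays overlapped both control groups. The rise in wild-type cells was 8.38-fold (3.07 ± 0.29 on the log2 scale, adjusted p = 7.61e-06, limma). In knockout cells Fosl2 went the other way, 2.15-fold lower with IL-4 (-1.10 ± 0.29, adjusted p = 0.0121), and -1.42 with slide as a block (adjusted p = 0.0263). That fall missed the threshold when the fit held only the knockout arrays (adjusted p = 0.0652).

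The difference of the Fosl2 responses, 4.17 ± 0.41 (adjusted p = 2.28e-05), was the largest among the 8 genes. All Fosl2 sizes shrank with normexp background correction, which adds an offset to dim signals: to 1.90 for the wild-type rise, -0.58 for the knockout fall and 2.48 for their difference, each still called. In the authors' normalized values the same changes were 1.71, -0.40 and 2.11, also called. A second Fosl2 probe (A_51_P507242, mm9 chr5:32455088-32455147) was well above background on all 3 wild-type IL-4 arrays, on knockout control 3 and on no other. In wild-type cells IL-4 raised it at least 2.10-fold, a bound set by the lowest signal well above background on the control arrays (adjusted p over probes = 3.43e-05, limma). In knockout cells its measured change was -0.61 (adjusted p over probes = 0.0599, limma), with 1 of 3 control arrays and no IL-4 array well above background. The fall called with the first probe was thus not called with the second.

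Fos itself, an immediate early gene, did not pass in wild-type cells and fell in knockout cells. Its probe (A_52_P262219, NM_010234, mm9 chr12:86817900-86817959, plus strand, 10 spots per array) had levels of -2.11, -1.92 and -1.91 on the wild-type control arrays, -2.10, -2.01 and -2.14 on the wild-type IL-4 arrays and -2.06, -1.69 and -1.26 on the knockout control arrays. On the knockout IL-4 arrays it was at -3.95, -4.10 and -3.31. The last 3 arrays lay below all others, and only the third of them was well above background, while the other groups overlapped. The change with IL-4 was -0.10 ± 0.22 in wild-type cells (adjusted p = 0.719, limma; 95% interval -0.59 to 0.39) and -2.12 ± 0.22 in knockout cells (adjusted p = 5.06e-05), a 4.34-fold fall.

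The 2 Fos responses differed by 2.02 ± 0.31 (adjusted p = 5.02e-04). With slide as a block the knockout fall was -2.53 (adjusted p = 2.93e-04) and the difference 2.43. Like those of Fosl2, the sizes depended on how background was treated. With normexp the fall was -0.90 and the difference 0.80, and in the authors' normalized values they were -0.99 and 0.93, each still called. Of the 6 plasma cell markers listed, Igj, Derl3 and Prdm1 also fell with IL-4, with log2 changes of -3.44, -1.66 and -1.69 in knockout cells and of -5.82, -3.07 and -2.81 in wild-type cells, where Fos had no called change. Xbp1 fell by 0.90 in knockout cells and rose by 0.87 in wild-type cells, Sdc1 changed by 0.10 in knockout cells (adjusted p = 0.646) and rose by 0.76 in wild-type cells, and Tnfrsf17 was above background on no array. The summed signal of the 6, in multiples of the 75th percentile, was 197 to 205 in the wild-type control, 183 to 188 in the wild-type IL-4, 162 to 217 in the knockout control and 59.5 to 63.5 in the knockout IL-4 group. Mean levels in these groups were 6.63, 7.50, 6.52 and 5.62 for Xbp1 and 6.39, 0.57, 6.34 and 2.91 for Igj. In the wild-type IL-4 group the sum was thus mostly Xbp1. The part of the plasma cell markers in the Fos result was not tested.

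Fosb, the third FOS gene, was near the detection limit. Its probe (A_55_P2113051, NM_008036, mm9 chr7:19888168-19888227, minus strand) was well above background on wild-type control 3 and knockout controls 2 and 3 and on no array with IL-4. Its measured levels were -3.55, -3.49 and -3.33 in the wild-type control, -4.30, -3.66 and -4.43 in the wild-type IL-4, -4.15, -2.86 and -2.26 in the knockout control and -5.61, -5.46 and -3.76 in the knockout IL-4 group. Only 2 of 3 control arrays measured it in knockout cells and 1 of 3 in wild-type cells, so no bound on its change with IL-4 is given. Fitted without the filter on dim probes, the knockout change was -1.85 (adjusted p = 0.0674, limma) and the wild-type change -0.67 (adjusted p = 0.561), so neither was called.

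JUN proteins are the common partners of FOS and BATF. Jun (probe A_55_P2158990, NM_010591, mm9 chr4:94716928-94716987, minus strand) had levels of 5.16, 5.26 and 5.21 on the wild-type control arrays, 5.61, 5.57 and 5.61 on the wild-type IL-4 arrays, 4.89, 5.08 and 5.24 on the knockout control arrays and 5.39, 5.32 and 5.36 on the knockout IL-4 arrays. In each genotype the IL-4 arrays lay above the controls, and the control groups overlapped. Jun rose 1.31-fold in wild-type cells (0.39 ± 0.08 on the log2 scale, adjusted p = 0.00132, limma) and 1.22-fold in knockout cells (0.29 ± 0.08, adjusted p = 0.0118). The knockout rise was lost with slide as a block (0.12, adjusted p = 0.267), with quantile normalisation (0.18, adjusted p = 0.117) and in the authors' values (0.16, adjusted p = 0.151). The difference of the responses was 0.10 (adjusted p = 0.475; 95% interval -0.14 to 0.34).

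Jund, the JUN family member that restrains growth in many cells, rose in wild-type cells. Its probe (A_51_P357744, NM_010592, mm9 chr8:73224436-73224495, plus strand) gave levels of 6.18, 6.20 and 6.29 on the wild-type control arrays, 6.53, 6.57 and 6.53 on the wild-type IL-4 arrays, 6.09, 6.13 and 6.00 on the knockout control arrays and 6.20, 6.08 and 5.87 on the knockout IL-4 arrays. The wild-type IL-4 arrays were highest and the knockout groups overlapped each other. The rise was 1.25-fold in wild-type cells (0.32 ± 0.08, adjusted p = 0.00540, limma), and the change in knockout cells was -0.02 (adjusted p = 0.840). The difference of 0.34 ± 0.11 (adjusted p = 0.0294) was lost under 10 of 23 alternatives, among them slide as a block (0.27, adjusted p = 0.141) and leaving out wild-type control 1 or 2, any wild-type IL-4 array, or knockout control 1 or 2 (adjusted p = 0.0505 to 0.0682).

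Junb, the remaining JUN gene, showed no called change. Its probe (A_55_P2011106, NM_008416, mm9 chr8:87501881-87501940, minus strand) gave levels of 1.03, 1.15 and 1.31 in the wild-type control, 1.31, 1.30 and 1.31 in the wild-type IL-4, 1.36, 1.50 and 1.39 in the knockout control and 1.14, 1.22 and 1.46 in the knockout IL-4 group. IL-4 and control arrays overlapped in both genotypes. Its change with IL-4 was 0.14 in wild-type cells (adjusted p = 0.209, limma; 95% interval -0.06 to 0.35) and -0.14 in knockout cells (adjusted p = 0.238; -0.35 to 0.06). The fall in knockout cells passed when knockout IL-4 array 3 was left out (-0.24, adjusted p = 0.0367). The difference of the responses, 0.29 (adjusted p = 0.0970), passed under 4 of 23 alternatives, quantile normalisation and the authors' values among them.

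**Figure D3:**
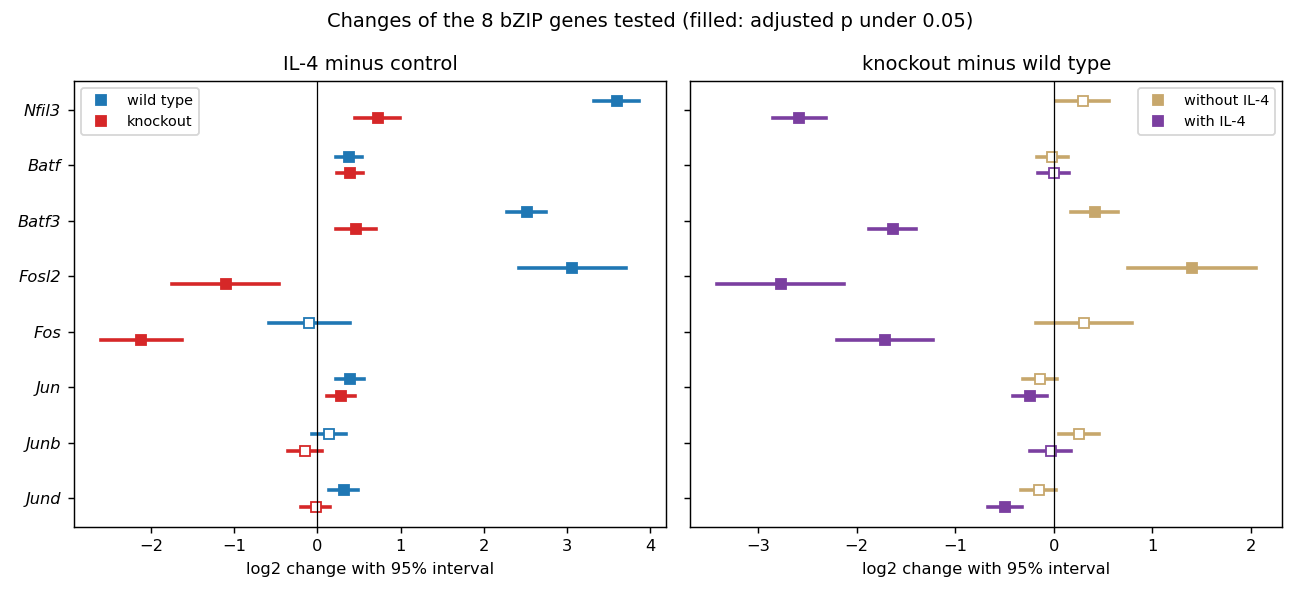
Log2 changes of the 8 genes tested, with 95% intervals, for IL-4 minus control in each genotype (left) and for the genotype difference, knockout minus wild type, under each condition (right). Filled squares passed an adjusted p under 0.05. Nfil3, Batf3 and Fosl2 lie between 2.52 and 3.60 for IL-4 in wild-type cells, and Fos at -2.12 in knockout cells.

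The responses to IL-4 differed between the genotypes for Fosl2, Nfil3, Batf3, Fos and Jund, 5 of the 8 genes, each with the more positive change in wild-type cells. Among all genes 44.8% passed this test and 16.4% in that direction. The 2 responses share no array. The 4 largest differences, all over 2 on the log2 scale, arose in different ways. Nfil3 and Batf3 rose in both genotypes but more in wild-type cells. Fos fell in knockout cells without a called change in wild-type cells. Fosl2 rose in wild-type cells and fell in knockout cells, where its second probe had no called change. Its difference also holds the higher level of the knockout control (1.40 without IL-4), a call lost under 8 of 19 alternatives. Jun, Batf and Junb did not pass, with differences between -0.01 and 0.29.

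With IL-4 present, 6 of the 8 genes were lower in knockout than in wild-type cells and none was higher, where 51.1% of all genes passed and 21.3% were lower. Fosl2 was 6.82-fold lower (log2 difference -2.77 ± 0.29), Nfil3 5.98-fold lower and Fos 3.27-fold lower, and the log2 difference of Batf3 was -1.63 ± 0.11. Jund was 1.41-fold and Jun 1.18-fold lower. The wild-type IL-4 arrays were all on slide 1 and the knockout IL-4 arrays all on slide 2, so genotype and slide cannot be told apart between them. A block for slide draws the slide effect from the knockout controls, of which knockout control 3 alone was on slide 2. The Jund difference missed the threshold with slide as a block (-0.38, adjusted p = 0.0650, limma), where the Jun difference was larger (-0.49, adjusted p = 0.00582). The Jun difference in turn was lost under 4 of 18 alternatives (adjusted p up to 0.0787, limma). Among them were the fits without wild-type IL-4 array 1 or 3 or knockout IL-4 array 2 (adjusted p = 0.0599 to 0.0666). With normexp the differences were -1.77 for Fosl2 and -0.59 for Fos, both still called. These comparisons share the IL-4 arrays with the responses above, so they do not count as separate evidence.

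Without IL-4, Fosl2 and Batf3 were higher in knockout cells, 2 of the 8 genes, and none was lower. Of all genes 11.7% passed and 4.73% were higher. Fosl2 was 2.64-fold higher (1.40 ± 0.29 on the log2 scale, adjusted p = 0.0211, limma) and Batf3 1.33-fold higher (0.42 ± 0.11, adjusted p = 0.0367). The second Fosl2 probe had a measured log2 difference of 1.35 (adjusted p over probes = 0.0109, limma). Of the control arrays only knockout control 3 had it well above background, so that size rests mostly on signals below background. With normexp the Fosl2 difference was 0.70 and in the authors' values 0.58, both called. Both calls were lost within slide 1, which leaves out knockout control 3 (Fosl2 1.24, adjusted p = 0.0818; Batf3 0.40, adjusted p = 0.115). They were also lost without any of the wild-type controls or without knockout control 2, and without the filter on dim probes, in each case with both genes still higher in the knockout. Scaling to the median of each array moved all knockout values down, and there Fosl2 alone was called higher, with Jun and Jund called lower (-0.32 and -0.34, adjusted p = 0.0342 and 0.0492).

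Other genes of the bZIP class give the setting. Of 13 further AP-1, small MAF and BACH genes 9 were tested, and Fosl1, Batf2 and Maf were too dim. In wild-type cells 5 rose with IL-4 and 1 fell. Jdp2, a repressor that pairs with JUN proteins, rose by 2.18 on the log2 scale, Mafg by 1.14, Bach1 by 0.86 and Mafk by 0.13, while Bach2, a repressor that competes at related sites in B cells, fell by 0.67. In knockout cells 4 rose and 2 fell, with changes of 0.56 for Jdp2 and -0.13 for Bach2. Maff had mean levels of -0.31 and 1.08 in the wild-type control and IL-4 groups and of 0.56 and -0.07 in those of the knockout. The Maff responses differed by 2.02 (adjusted p = 0.00196, limma). The median of the 9 was 0.52 in wild-type and 0.08 in knockout cells.

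Of 28 other bZIP genes 22 were tested, and in wild-type cells 12 rose and 6 fell (median 0.35). Atf5 rose by 2.75, Cebpb by 2.24, Crem by 1.19, Nfe2l1 by 0.99 and Xbp1, a factor of secretory cells, by 0.87. In knockout cells 8 rose and 7 fell (median -0.01), and Xbp1 fell by 0.90. The PAR bZIP factors Tef and Dbp share binding sites with NFIL3, and both fell in wild-type cells, by 0.76 and 0.42, and in knockout cells, by 0.31 and 0.40. The Tef responses differed (-0.45, adjusted p = 4.75e-04, limma), and those of Dbp did not pass (-0.02, adjusted p = 0.806). Of the 18 clock genes listed, these 2 included, 12 were tested, and 2 rose and 6 fell in wild-type cells, Bhlhe40 by 1.91 and Bhlhe41 by 1.39.

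Some AP-1 genes, Fos among them, are immediate early genes, and AP-1 factors lie downstream of MAP kinases. Of 26 listed immediate early genes, among them Maff and Atf3 of the AP-1 list above, 23 were tested, and in wild-type cells 11 rose and 8 fell (median 0.45), against 5 and 5 in knockout cells (median 0.01). Egr2 rose by 2.37 and Klf2 by 2.11 in wild-type cells and fell by 0.34 and 0.41 in knockout cells. The brighter Fosl2 probe had the same pair of directions. Klf6 rose by 0.95 and Btg1 fell by 1.09 in wild-type cells. Of 34 MAP kinase, phosphatase and upstream genes, Dusp1 of the immediate early list among them, 33 were tested, and 11 rose and 11 fell in wild-type cells (median 0.04). Rasgrp3, an activator of RAS, fell by 2.45, Dusp6, a phosphatase of ERK, by 2.17 and Elk3, a factor that ERK activates, by 1.92, while Dusp10 rose by 1.26. In knockout cells 10 rose and 5 fell.

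**Figure D4:**
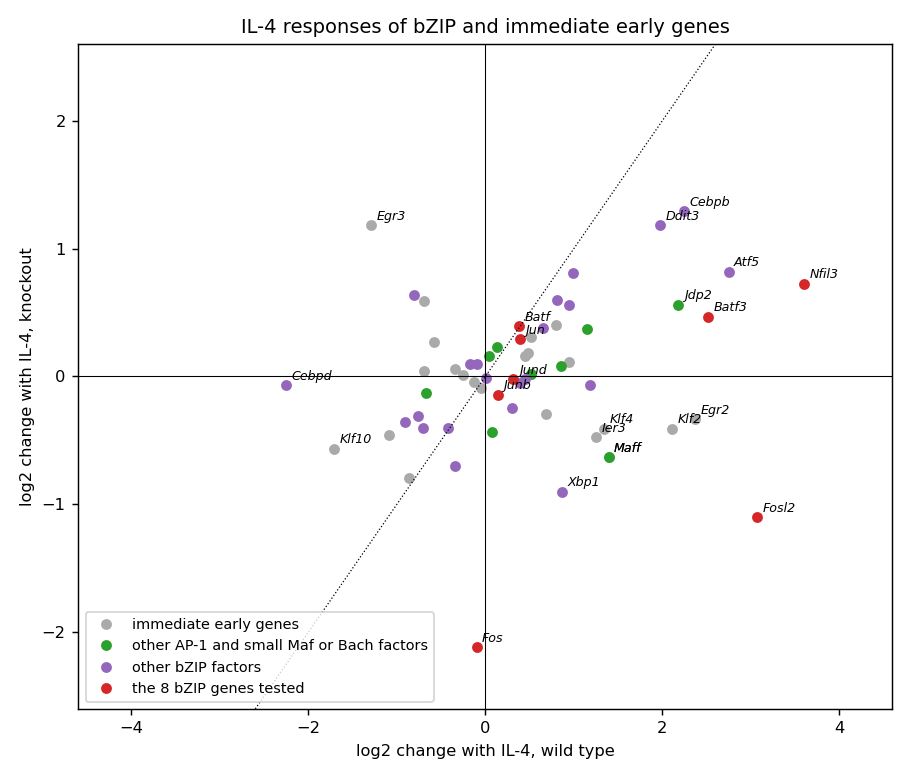
Log2 change with IL-4 in wild-type cells (horizontal axis) against that in knockout cells (vertical axis), for the 8 bZIP genes tested and for other bZIP, small MAF or BACH and immediate early genes. Points are genes, and the dotted line marks equal changes. Nfil3 and Batf3 lie far to the right at 3.60 and 2.52, and Fos and Fosl2 lowest at -2.12 and -1.10.

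Genes with the most similar pattern were found by the Pearson correlation of levels over the 12 arrays, among 11202 tested genes with symbols. The arrays fall into 4 groups, so such correlations mostly describe the group means. Nfil3 was closest to Arhgap8, Gif and Slco4a1 (r = 0.998, 0.998 and 0.997), and Batf3 to Slco4a1, Mtdh and Stat5a (0.996, 0.994 and 0.993). Nfil3 and Batf3 themselves correlated at 0.991, the highest value among the 28 pairs of tested members. Fosl2 was closest to Plekhg5 (0.986), Ubtd1 and Carhsp1 (both 0.978), and Fos to Ache (0.985), Pik3ip1 (0.962) and Ffar2 (0.959). Batf was closest to Dyrk2 (0.987), Slc30a7 (0.981) and Ebi3 (0.980), Jun to Zfp629, Birc3 and Pde4b (0.960, 0.957 and 0.955), and Jund to Abcb1b, Aldh6a1 and Chpf2 (0.975, 0.974 and 0.973). Junb had no such close companion, its 3 highest being Slc8a3 at 0.892, Stx11 at 0.866 and Nr4a2 at 0.848.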

How the data were processed

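According to the file headers, Agilent Feature Extraction 10.7.3.1 made the scanner files that the authors deposited. The deposited intensity of each spot was background subtracted and detrended by that program, with no scaling between arrays, per the file headers. The authors also deposited 1 log2 value per gene and array, background subtracted and quantile normalised, used here as an alternative. Probe positions are mm9, as the files give them, and promoters are RefSeq GRCm38.p6. No coordinates were converted.

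From log2 intensities the array's 75th percentile (296 to 356 before the log) was subtracted, without control spots and 122 to 196 outlier spots per array, and spots of a probe were averaged. Probes passed the filter if at least 1 group had them well above background on its 3 arrays (22940 of 55681 probes), and the brightest such probe stood for its gene. It kept 9 of the 10 probes of these genes, all but that of Fosb. No spot was saturated. With limma 3.58.1 in R 4.3.3 (packages data.table, version 1.17.8, and jsonlite 2.0.0), 4 group means were estimated from 12 arrays and 5 contrasts tested, with Benjamini-Hochberg adjustment over 16497 genes. Verbs of change are used at an adjusted p under 0.05. The script was tested on simulated data. The number of arrays limits the precision.

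Where no array of the dimmer group and every array of the brighter group was above background, the fold is a bound. The members and gene lists were chosen with earlier results of these data known. Other genes named are up to 4 per list with the smallest adjusted p in wild-type cells and up to 2 in knockout cells, fixed genes, and the 3 most correlated genes per member. Xcr1, Clec9a, Tnfrsf17, Sdc1, Maff, Atf3 and Dusp1 are named from the lists outside that rule. TGACGT was added to the promoter search after the sequences had been read. Alternatives changed the scaling, background, filter, probe choice or variance settings, used slide or replicate number as a block, or left out each array. Fits within slides were added after seeing the data. Plots used matplotlib 3.10.9 with pandas 2.3.3 and Python 3.11.15.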

Additional observations from a re-analysis of the deposited data

Results flagged for a closer look

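For 5 of the 8 genes tested, the response to IL-4 differed between wild-type and knockout cells by a test of that difference (limma interaction, adjusted over all genes). The wild-type minus knockout difference on the log2 scale was 4.17 ± 0.41 SE for Fosl2 (adjusted p = 2.28e-05), 2.87 ± 0.17 for Nfil3 (adjusted p = 5.90e-07) and 2.05 ± 0.15 for Batf3 (adjusted p = 2.76e-06). It was 2.02 ± 0.31 for Fos (adjusted p = 5.02e-04) and 0.34 ± 0.11 for Jund (adjusted p = 0.0294). Nfil3, Fosl2 and Batf3 were each higher with IL-4 on 3 of 3 wild-type arrays than on any wild-type control array, and Fos was lower on 3 of 3 knockout IL-4 arrays than on any knockout control array. IL-4 and control arrays did not overlap for 69.2% of all genes in wild-type cells and 46.5% in knockout cells. The interaction test was passed by 44.8% of all genes.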

How the results depend on the processing

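No called change of a member reversed under any alternative run. The count of members called was 2 for knockout minus wild type without IL-4. It was 0 (limma) without the filter on dim probes, with slide as a block and within slide 1, where 4 members had an unadjusted p under 0.05 in each case, and it ranged from 0 to 3 when single arrays were left out, with 0 without any wild-type control or without knockout control 2 or 3 (2 to 4 members at an unadjusted p under 0.05 there). With the median of each array as the scale, that comparison called 3, with 1 higher and 2 lower. That scaling moved the median of all genes to -0.22, from -0.04, and called 5569 genes in all in place of 1929. The other counts over all genes in that comparison that moved by over 1.5 times were 271 without the filter, 905 with only the compared arrays, 417 with slide as a block and 384 to 3727 when single arrays were left out. With IL-4, slide as a block gave 5273 genes in place of 8431. Leaving out single arrays gave 6 members in the wild-type response, 6 to 7 in the knockout response, 4 to 6 for their difference and 5 to 6 for knockout minus wild type with IL-4. With the replicate number as a block the counts were 6, 6, 5, 2 and 6, as without it. Same-numbered samples correlated at 0.03 to 0.07 (wild type) and -0.02 to 0.39 (knockout) in their deviations. The own number gave the best match for every wild-type replicate and for knockout replicates 1 and 3, but not 2. Whether the numbers pair control and IL-4 samples is thus not settled, and the main fit did not pair them. Over all members, comparisons and alternatives, 723 values kept their side of the threshold, 40 lost it and 8 gained it. Fos and Fosl2 are dim, and their sizes depend most on the treatment of background.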
